A study of Mus musculus with 6 samples.

Results

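The Bcl2 family genes were followed in RNA sequencing libraries of mouse haematopoietic stem cells (HSCs), the self-renewing cells of the bone marrow from which the blood lineages arise. The members were the 10 genes of the series' table with the symbols Bcl2, Bcl2l1, Mcl1, Bax, Bak1, Bcl2l11, Bbc3, Pmaip1, Bid and Bad, out of 47937 genes, and all 10 were among the 11805 genes tested. The libraries came from untreated wild-type C57BL/6 mice of 8 weeks, described as male, whose marrow was depleted of lineage-positive cells and sorted as Kit and Sca-1 positive, CD34, Flt3 and CD48 negative and Slam1 positive cells. Cells of that gate labelled positive (CD93pos) or negative (CD93neg) for the surface receptor CD93 gave 3 libraries each, and the comparison asks how the 2 fractions differ. The labels call the libraries biological replicates without saying which animals gave which, so p-values measure only the spread between these libraries.

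Proteins of the Bcl2 family decide at the outer mitochondrial membrane whether a cell enters intrinsic apoptosis. Pro-survival members hold the effectors Bax and Bak1 in check, BH3-only proteins relay damage and growth-factor loss by binding the pro-survival members or the effectors, and freed effectors open the membrane so that cytochrome c leaves and caspases are activated. In HSCs, Mcl1 and Bcl2 are known for their part in keeping the cells alive. Much of the control of these proteins acts after transcription, on which RNA counts are silent.

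Several properties of the libraries touch every value. Reads assigned to genes ranged from 5794528 to 9509304 in CD93pos and from 2832653 to 4614396 in CD93neg. CD93neg replicate 1 stood apart, with no read for 71.0% of the tested genes, against 2.10% to 26.4% in the other 5 libraries. Cd93 itself had 906, 1001 and 550 reads in CD93pos (95.3, 173 and 76.9 CPM, reads per 1000000 assigned) against 0, 419 and 38 in CD93neg (0, 90.8 and 12.7 CPM). The library labelled CD93neg replicate 2 thus lay above CD93pos replicate 3 for the transcript of the sorted receptor. The label refers to the receptor at the cell surface, which RNA counts do not measure. Among 14 HSC markers, 9 were unread in CD93neg replicate 1 and none in the other 5 libraries, while Hlf and Meis1 had 2414 and 7138 reads in CD93neg replicate 1. The summed HSC markers were higher in every CD93neg library, with 5707, 5328 and 3769 CPM against 3216, 3516 and 2703 in CD93pos. The 4 Y-linked genes together had 186 to 231 CPM in CD93pos and at most 0.353 in CD93neg, and Xist had 2419 and 1143 reads in CD93neg replicates 2 and 3 but at most 12 elsewhere, which goes against the label of male mice for those 2 libraries. Neutrophil markers (14 genes) summed to 13277 and 9332 CPM and B lineage markers (11 genes) to 11201 and 34016 in CD93neg replicates 2 and 3, against at most 323 and 100.4 in any other library. The neutrophil gene Ly6g had 0 reads in CD93pos and 200 and 55 in those 2 libraries, and all 14 neutrophil markers were unread in CD93neg replicate 1. MHC class II genes (7 genes) had 4398 and 4594 CPM in CD93neg replicates 2 and 3 against at most 475 elsewhere, and the 20 G2 and mitosis genes 273 and 482 CPM against at least 2718. Mast cell and basophil markers (8 genes) went the other way, with 635, 1405 and 1006 CPM in CD93pos against 0.353, 354 and 245, and so did erythroid markers (10 genes), with 394, 314 and 636 CPM against 228, 15.4 and 83.2. T and NK markers (10 genes) overlapped, with 361, 237 and 429 CPM in CD93pos against 247, 18.9 and 95.6 in CD93neg. Mitochondrial genes took 0.718% to 1.04% of reads in CD93pos and 0.519%, 1.61% and 2.15% in CD93neg. Bulk RNA cannot tell fewer cells of a type from less RNA per cell. Results are therefore given with and without CD93neg replicate 1, and the part of these marker and library differences in them was not tested. Y-linked reads divided the libraries as the CD93 labels did, and so did neutrophil, B lineage and Xist reads without CD93neg replicate 1. Such differences cannot be told apart from CD93 status in these libraries.

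The pro-survival genes had fewer reads in CD93neg, while the family as a whole overlapped between the groups, with 659, 869.6 and 560.2 CPM in CD93pos against 0.706, 605 and 418 in CD93neg. Bcl2, Bcl2l1 and Mcl1 together had 289.5, 350.2 and 238 CPM in CD93pos replicates 1, 2 and 3 and 0.706, 109.7 and 125 CPM in CD93neg replicates 1, 2 and 3. These sums did not overlap, also without CD93neg replicate 1, although Mcl1 alone did. Of single tested genes, 18.3% had CD93pos higher without overlap, and 21.8% did so without CD93neg replicate 1. A positive fold change was seen for 79.9% of tested genes. No share over all genes was taken for sums of 3 genes. The effectors Bax and Bak1 together had 158, 165 and 92.1 CPM in CD93pos and 0, 175 and 129 in CD93neg, and the 5 BH3-only genes had 212, 354 and 230.3 CPM against 0, 321 and 164. Both of these classes overlapped between the groups, with CD93neg replicate 2 among the highest libraries. The mean pro-survival sum was 292 ± 56.2 CPM (SD, n = 3) for CD93pos against 78.5 ± 67.8 (SD, n = 3) for CD93neg, and the sum of the 7 pro-death genes was 404 ± 103 against 263 ± 249. The CD93neg means over replicates 2 and 3 alone were 117 CPM for the pro-survival sum and 394 for the pro-death sum, so the pro-death means then nearly coincided.

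**Figure D1:**
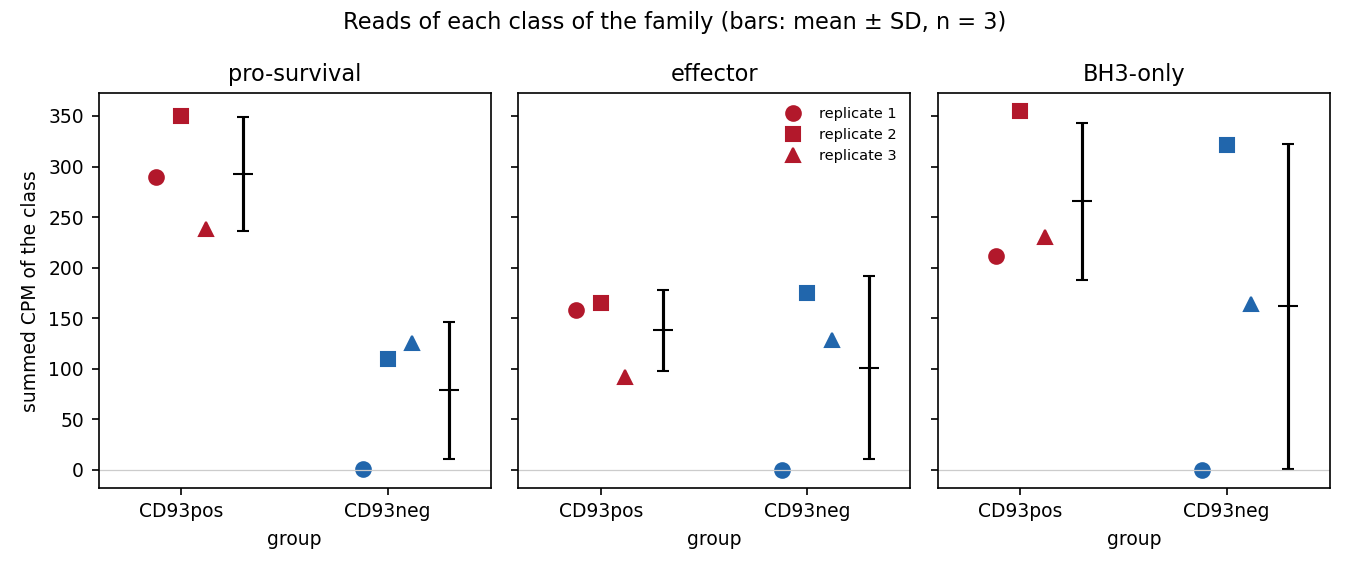
Summed CPM (reads per 1000000 assigned reads) of the 3 pro-survival, 2 effector and 5 BH3-only genes, one point per library, with the mean and SD of 3 libraries beside each group. The pro-survival sums of CD93pos (238 to 350.2) lie above all CD93neg sums, while the other classes overlap and CD93neg replicate 1 sits at or near 0 in each. Of single tested genes, 18.3% had CD93pos higher without overlap.

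The share of the family's reads held by the pro-survival genes varied less among the 3 CD93pos libraries than among the CD93neg libraries. It was 43.9% (exact Clopper-Pearson 95% interval 42.7 to 45.2), 40.3% (38.9 to 41.6) and 42.5% (40.9 to 44.0) in CD93pos replicates 1, 2 and 3. In CD93neg replicates 2 and 3 it was 18.1% (16.7 to 19.6) of 2794 reads and 29.9% (27.4 to 32.6) of 1256 reads. Both lay below every CD93pos library. They differed from each other by more than their intervals, which cover counting error only, as did CD93pos replicates 1 and 2. CD93neg replicate 1 had 2 reads for the whole family, 1 of Bcl2 and 1 of Mcl1, so its share of 100% rests on too few reads to be read. It turns the group comparison: the mean share was 42.2% ± 1.84 (SD, n = 3) for CD93pos against 49.3% ± 44.3 (SD, n = 3) for CD93neg, a difference of -7.13 percentage points, but 18.2 points toward CD93pos without that library. Over the summed reads of each group, a measure added after the data were seen, the share was 42.3% in CD93pos and 21.8% in CD93neg. No test is given for a score over chosen members.

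Leaving out Bcl2 (a choice made after the data were seen) or Mcl1 narrowed the gap in share over the 5 libraries other than CD93neg replicate 1 from 18.2 points to 11.5 and 16.8, and counting per kilobase of exon to 11.5. With that library included the differences ran the other way, at -15.4, -10.5 and -16.8 points. Without Bcl2, which had no read in CD93neg replicate 2, the share was 27.1% to 32.9% in CD93pos and 18.1% and 20.9% in CD93neg replicates 2 and 3. Without Mcl1 it was 30.4% to 40.7% against 10.3% and 25.7%, and per kilobase of exon 23.9% to 28.6% against 13.1% and 16.7%. CD93pos and these 2 CD93neg libraries did not overlap under any of these 3 measures. Expressed as reads of pro-survival per read of pro-death genes, the libraries had 0.783, 0.674 and 0.738 in CD93pos and 0.221 and 0.427 in CD93neg replicates 2 and 3. The pair Bcl2l1 and Bak1, singled out after the values were seen, had a read ratio of 1.99, 3.25 and 3.37 in CD93pos and of 0.645 and 0.801 in those CD93neg libraries. The pair Bcl2 and Bax, singled out in the same way, overlapped, with 1.42, 0.766 and 1.18 in CD93pos and 0 and 0.769 in those CD93neg libraries.

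**Figure D2:**
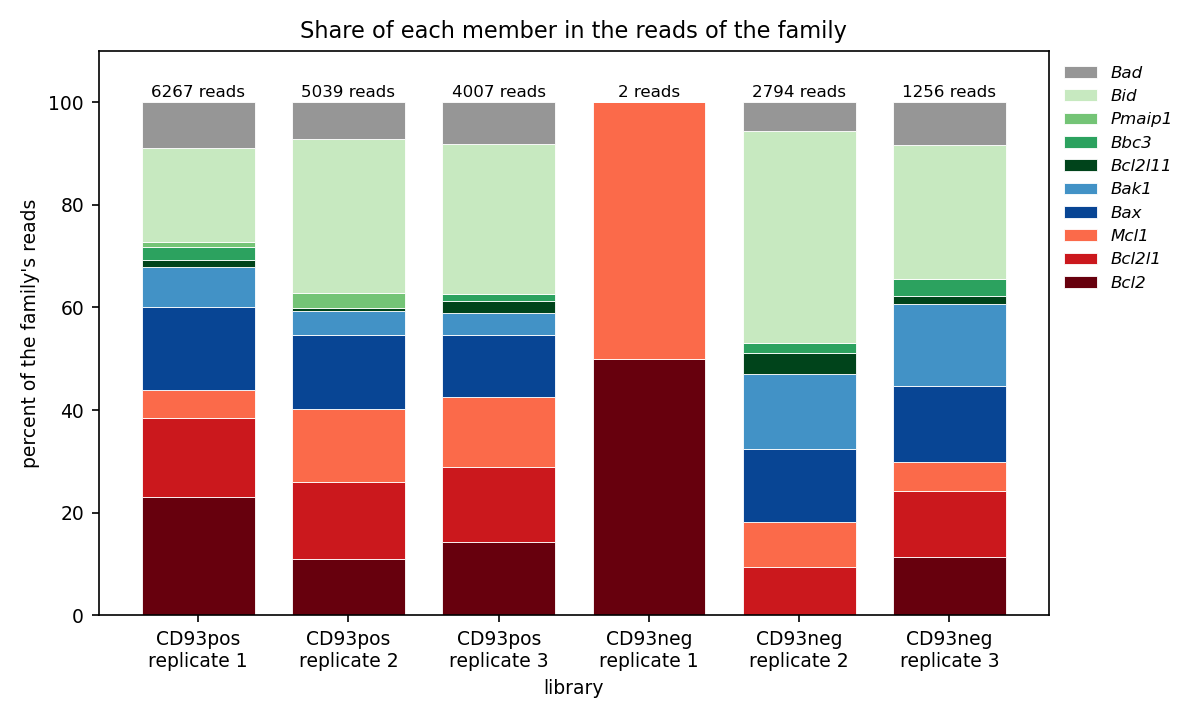
Percent of the family's reads held by each of the 10 members in each library, with the number of family reads above each bar. Pro-survival members (reds) fill 40.3% to 43.9% of the CD93pos bars and 18.1% and 29.9% of CD93neg replicates 2 and 3, and CD93neg replicate 1 shows 2 reads only.

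No member passed the test of the fit across all genes (limma on log2(normalized count + 1), Benjamini-Hochberg adjustment over 11805 genes, threshold 0.05), in which 0% of genes were called. By unadjusted p under 0.05, 1391 genes (11.8%) were higher and 45 (0.381%) lower in CD93pos, and of the members Bcl2 was among the higher. edgeR called 0% of genes (10.5% at an unadjusted p under 0.05). Without CD93neg replicate 1, limma called 0.00847% of genes and again no member. The fold change was positive for 9 of 10 members and for 79.9% of tested genes, and the median of the members was 3.13 against 2.36 for all tested genes. The sign of Pmaip1, which had no read in CD93neg, could only be positive. Without CD93neg replicate 1 the fold change was positive for 7 of 10 members and 60.1% of all genes, and the medians fell to 0.52 and 0.43. Groups did not overlap, with CD93pos higher, for 3 members, Bcl2, Bcl2l1 and Bad, where 18.3% of tested genes did so. Without CD93neg replicate 1 these 3 were again higher (background 21.8%) and Bak1 was lower in all CD93pos libraries (background 13.8%). CD93neg replicate 1 had no read for 8 of 10 members (71.0% of tested genes) and at most 1 read for all 10 (76.6%), and 6 members were read in every other library but not in it (38.0%). The fold changes below come with wide intervals.

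**Figure D3:**
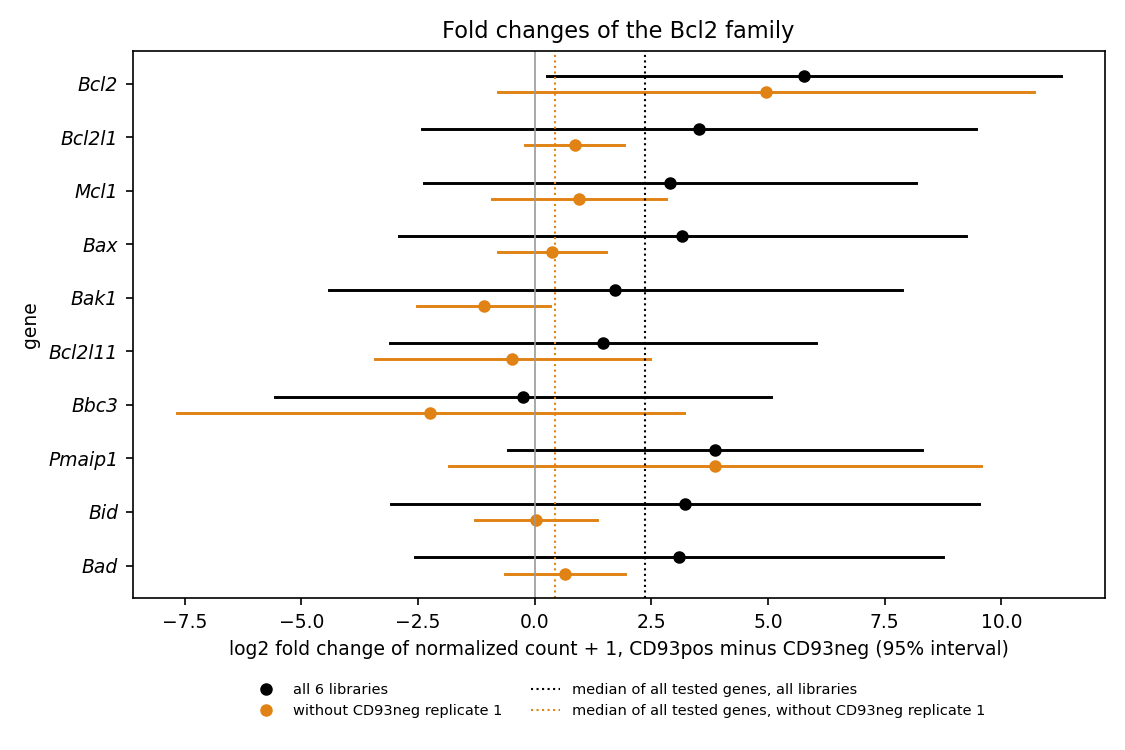
Fitted log2 fold change (CD93pos minus CD93neg, on log2 of the normalized count + 1) of each member with its 95% interval, for all 6 libraries (black) and without CD93neg replicate 1 (orange), with dotted lines at the medians of all tested genes. With all libraries only the interval of Bcl2 (0.27 to 11.27) leaves out 0, before any adjustment, and without that library the intervals of Bcl2l1, Mcl1, Bax, Bak1, Bid and Bad become several times narrower.

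Bcl2, the founding pro-survival protein of the family (ENSMUSG00000057329.7, GRCm38 chr1:106538178-106714274, minus strand), had 1444, 554 and 570 reads in CD93pos against 1, 0 and 143 reads in CD93neg. Its normalized counts (reads divided by the authors' size factor) were 660, 439 and 351 against 1.82, 0 and 223, so each CD93pos library lay above each CD93neg library. The log2 fold change was 5.77 (SE 2.39), with an unadjusted p of 0.042 and a limma adjusted p of 0.382. Without CD93neg replicate 1 it was 4.96 (SE 2.28, 95% interval -0.78 to 10.71), with an unadjusted limma p of 0.0777 and an adjusted p of 0.355. The 0 reads of CD93neg replicate 2, a library of 4614396 reads, allow up to 0.650 CPM at a floor of 3 reads, against 47.6 CPM in CD93neg replicate 3. By summed CPM Bcl2 was 8.30 times higher in CD93pos, 6.09 times without CD93neg replicate 1 and 4.63 times without CD93neg replicate 2, while without CD93neg replicate 3 only 1 CD93neg read was left. Without CD93neg replicate 3 the log2 fold change was 8.12 and limma's adjusted p was 0.0146, in a fit that called 1880 genes and set CD93pos against 2 libraries with 1 Bcl2 read between them. Bcl2 shares 558 exon bases with an antisense RNA on the other strand that had 7 reads in all.

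Bcl2l1, whose long product Bcl-xL is pro-survival (ENSMUSG00000007659.18, GRCm38 chr2:152780668-152831728), had 963, 758 and 586 reads in CD93pos against 0, 264 and 161 in CD93neg. Gene counts do not separate the long form from the short pro-death form made by splicing. The normalized counts were 440, 601 and 361 in CD93pos and 0, 251 and 252 in CD93neg, where the last 2 libraries nearly coincided. The CD93pos mean was 467 ± 122 (SD, n = 3) against 168 ± 145 (SD, n = 3), and the fitted log2 difference was 3.52 (SE 2.58, limma adjusted p = 0.597). With CD93neg replicate 1 left out, the log2 fold change was 0.86 (SE 0.42, limma adjusted p = 0.383), and the ratio of means fell from 2.79 to 1.86.

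Mcl1, a pro-survival protein with a short life in the cell (ENSMUSG00000038612.16, GRCm38 chr3:95658788-95663176), had 346, 717 and 545 reads in CD93pos against 1, 242 and 72 in CD93neg. The normalized counts were 158, 568 and 335 against 1.82, 230 and 113. The groups overlapped, because CD93neg replicate 2 lay above CD93pos replicate 1. Mcl1 varied more within CD93pos than any other member read in all 3 of its libraries, with a highest to lowest ratio of 3.59. The log2 fold change was 2.90 (SE 2.29, limma adjusted p = 0.611), and 0.95 (SE 0.74) without CD93neg replicate 1.

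**Figure D4:**
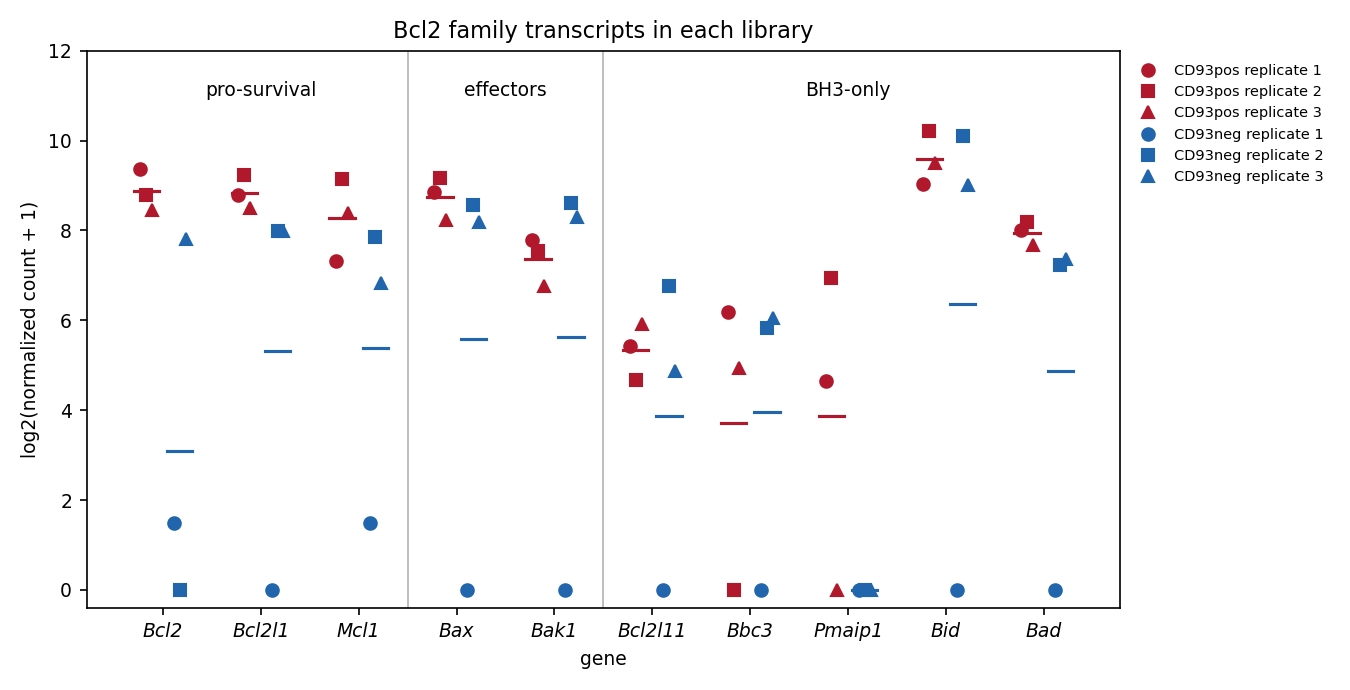
Log2 of the normalized count + 1 for each member in each library, CD93pos in red and CD93neg in blue, with symbols for the replicates and a line at each group's mean of these values. CD93neg replicate 1 (blue circles) lies at or near 0 for all 10 members and pulls down the CD93neg means. For Bcl2, Bcl2l1 and Bad every red point lies above every blue point.

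Bax, an effector that forms pores in the mitochondrial membrane (ENSMUSG00000003873.10, GRCm38 chr7:45461697-45466898), had 1016, 723 and 485 reads in CD93pos against 0, 397 and 186 in CD93neg. Its normalized counts of 464, 573 and 298 in CD93pos overlapped with the 378 and 291 of CD93neg replicates 2 and 3. The log2 fold change of Bax was 3.17 (SE 2.64, limma adjusted p = 0.62) with all libraries and 0.37 (SE 0.46) without CD93neg replicate 1. The ratio of means moved from 2.00 to 1.33 between those 2 settings. Bax shares 192 exon bases, 12.2% of its exons, with the gene model Gm45808 on the same strand.

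Bak1, the second effector (ENSMUSG00000057789.13, GRCm38 chr17:27019810-27029009), went the other way in the well-read libraries. It had 483, 233 and 174 reads in CD93pos against 0, 409 and 201 in CD93neg, and normalized counts of 221, 185 and 107 against 0, 389 and 314. CD93neg replicates 2 and 3 were thus the 2 highest libraries of all for Bak1. The fitted log2 fold change was 1.73 (SE 2.67, limma adjusted p = 0.733) with CD93neg replicate 1 and -1.09 (SE 0.56, limma adjusted p = 0.401) without it. The CD93pos mean of Bak1 was 171 ± 58.1 normalized counts (SD, n = 3) against 234 ± 206 (SD, n = 3) for CD93neg, opposite to the sign of the fit over all libraries. Quantile normalization, edgeR and DESeq2 also gave negative values (-0.31, -0.38 and -0.46). The neutrophil and B lineage reads described above were high in the same 2 libraries, and their part in the Bak1 values was not tested. Exons of Bak1 share 437 bases with Ggnbp1 on the other strand, a gene with 226 reads over all libraries.

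Among the BH3-only genes, Bid had the most reads of any member. Bid, which is cut by caspase 8 and links death receptors to mitochondria (ENSMUSG00000004446.12, GRCm38 chr6:120891930-120916853), had 1152, 1504 and 1173 reads in CD93pos against 0, 1153 and 328 in CD93neg. The normalized counts were 527, 1192 and 722 against 0, 1097 and 513, so that the well-read libraries of both groups covered nearly the same range. Its log2 fold change was 3.22 (SE 2.73, limma adjusted p = 0.623), and 0.03 (SE 0.52; 95% interval -1.27 to 1.34) without CD93neg replicate 1. Bid alone made up 18.4% to 29.8% of the family's reads in CD93pos and 41.3% and 26.1% in CD93neg replicates 2 and 3. A stretch of 628 exon bases, 17.7% of its exons, is shared with Bcl2l13 on the opposite strand, and reads there cannot be assigned without the strand.

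Bad, a BH3-only protein that growth-factor signalling silences by phosphorylation (ENSMUSG00000024959.13, GRCm38 chr19:6941861-6951899), was the BH3-only gene whose groups did not overlap. It had 560, 366 and 329 reads in CD93pos against 0, 156 and 105 in CD93neg, with normalized counts of 256, 290 and 202 against 0, 148 and 164. Bad was also the least variable member within CD93pos (highest to lowest ratio 1.43). The log2 fold change was 3.09 (SE 2.45, limma adjusted p = 0.612), or 0.66 (SE 0.51) without CD93neg replicate 1. Bad shares 524 exon bases, 20.5% of its exons, with Gpr137 on the opposite strand, which had 215 reads in all.

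The promoter windows of Bcl2, Bcl2l1 and Bad are shown because these were the members whose groups did not overlap. Each window runs from 250 bases before to 50 bases after the start site (RefSeq, GRCm38.p6), 5′ to 3′ on the gene's strand, and RefSeq windows of the same kind were found for 9 of the 10 members. Capitals mark GC boxes, the letters GGGCGG or CCGCCC, which are the site of Sp1-type factors. The windows lie at chr1:106714241-106714540 (minus strand), chr2:152831679-152831978 (minus strand) and chr19:6941611-6941910 (plus strand).
Bcl2: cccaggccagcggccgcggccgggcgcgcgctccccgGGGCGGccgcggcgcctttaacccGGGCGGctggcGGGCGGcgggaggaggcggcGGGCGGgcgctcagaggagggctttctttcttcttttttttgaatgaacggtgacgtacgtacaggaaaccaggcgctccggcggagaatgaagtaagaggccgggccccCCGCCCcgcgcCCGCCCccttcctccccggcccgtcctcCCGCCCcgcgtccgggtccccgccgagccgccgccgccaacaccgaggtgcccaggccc
Bcl2l1: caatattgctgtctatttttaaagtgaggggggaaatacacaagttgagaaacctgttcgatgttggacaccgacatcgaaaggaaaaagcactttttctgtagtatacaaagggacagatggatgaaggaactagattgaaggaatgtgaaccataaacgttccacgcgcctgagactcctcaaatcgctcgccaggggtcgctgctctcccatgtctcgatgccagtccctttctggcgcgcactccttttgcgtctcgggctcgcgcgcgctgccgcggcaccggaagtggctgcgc
Bad: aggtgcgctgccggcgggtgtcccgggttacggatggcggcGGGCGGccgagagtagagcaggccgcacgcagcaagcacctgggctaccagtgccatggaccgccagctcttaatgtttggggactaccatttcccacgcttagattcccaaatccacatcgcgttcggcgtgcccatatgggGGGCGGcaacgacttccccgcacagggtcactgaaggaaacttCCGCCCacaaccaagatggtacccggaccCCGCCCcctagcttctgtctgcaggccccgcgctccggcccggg
The Bcl2 window held 7 GC boxes and was 76% G and C, and the Bad window held 4 and was 65.7% G and C. The Bcl2l1 window held none and was 52.3% G and C, close to the median of 52.7% over 27025 RefSeq promoters. A GC box occurred in 35.9% of all promoters. Members whose groups overlapped had GC boxes too: Bbc3 held 5 (76% G and C), Bax, Bcl2l11 and Bid 3 each, and Mcl1 1, while Bak1 held 0. None of the 3 printed windows had a CCAAT box (CCAAT or ATTGG, in 37.9% of all), the STAT letters TTCNNNGAA (8.47% of all), a TATA box (TATAAA on either strand, 14.2% of all) or a p53 half-site (8.37% of all), searched on both strands. Letters alone are a description and say nothing of binding in these cells.

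The 3 BH3-only genes best known as damage or stress responders had few reads. Bcl2l11, which encodes Bim, an activator of the effectors (ENSMUSG00000027381.16, GRCm38 chr2:128126038-128162547), had 92, 31 and 97 reads in CD93pos against 0, 114 and 18 in CD93neg. Its normalized counts of 42.1, 24.6 and 59.7 lay within the range of the CD93neg libraries (0, 108.5 and 28.1). On the log2 scale its fitted difference was 1.46 (SE 1.98, limma adjusted p = 0.702), and -0.48 (SE 1.17) without CD93neg replicate 1.

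Bbc3, which encodes the p53 target Puma (ENSMUSG00000002083.12, GRCm38 chr7:16308393-16318205), had 158, 0 and 48 reads in CD93pos against 0, 59 and 42 in CD93neg. Each group thus held 1 library without a read, and the normalized counts of the others were 72.2 and 29.5 in CD93pos and 56.1 and 65.6 in CD93neg. The log2 fold change was -0.26 (SE 2.31, limma adjusted p = 0.955), but 1.60 without CD93pos replicate 2 and -2.24 without CD93neg replicate 1. Pmaip1, which encodes the p53 target Noxa, an antagonist of Mcl1 (ENSMUSG00000024521.7), was read only in CD93pos, with 53, 153 and 0 reads there and 0 in each CD93neg library. With the unread CD93neg group set to a floor of 3 reads in all, it was at least 32.0-fold higher in CD93pos by summed CPM, a bound that was 11.1-fold without CD93pos replicate 2, 17.8-fold without CD93neg replicate 2 and 46.9-fold without CD93pos replicate 3. Because CD93pos replicate 3 had none either, the groups touch at 0. Its mean normalized count of 24.2 passed the filter of 10 through CD93pos alone, which fixed the sign of its fold change in advance. The limma log2 fold change was 3.86 (SE 1.93, adjusted p = 0.456), but 0.0025 after quantile normalization. The authors' deposited table gives Pmaip1 an adjusted p of 0.0824 and a log2 fold change of 7.56, the smallest adjusted p of the members there. In that table, and in DESeq2 run on the recovered reads, 5.97% of the genes with an adjusted p were under 0.05 (5.58% higher in CD93pos), and none of the members was.

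Levels between genes were compared per kilobase of exon (RPKM, reads per kilobase of GENCODE M21 exon per 1000000 assigned reads). In CD93pos the order was Bax (63.3 ± 18.5 RPKM), Bid (51.1 ± 20.0), Mcl1 (23.0 ± 12.8), Bcl2l1 (22.8 ± 5.37), Bad (21.9 ± 3.49), Bak1 (16.0 ± 5.53), Bcl2 (11.9 ± 4.14), Pmaip1 (3.90 ± 5.09), Bbc3 (3.66 ± 3.94) and Bcl2l11 (1.19 ± 0.51), with SD over n = 3. Each gene overlapped with the next in that order, so neighbours cannot be ranked. In CD93neg replicates 2 and 3, Bid had 70.4 and 30.8 RPKM and Bax 54.6 and 39.3, again the top of the order. Bak1 came next there with 36.8 and 27.8, above Bad (13.2 and 13.7) in both libraries, while in CD93pos Bad and Bak1 overlapped. Bcl2 stood in eighth place with 0 and 5.20 RPKM.

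Across the 6 libraries most members rose and fell together, as a description that the sparse CD93neg replicate 1 dominates. The Pearson correlation of log2 values was 0.999 between Bcl2l1 and Bad and 0.997 between Bcl2l1 and Bax, but 0.60 between Bcl2 and Bcl2l1 and -0.34 between Bbc3 and Pmaip1. Predicted genes (Gm with digits or names ending in Rik), pseudogenes, mitochondrial genes and antigen receptor segments were left out of the search for like genes. The remaining tested genes most like Bcl2 by that measure were Gspt1, a translation termination factor, Ncapd2, a condensin subunit, and Cfap43 (r = 0.9998, 0.998 and 0.998). For Bcl2l1 they were Shmt1, Vrk1 and Tia1, and for Mcl1 Wdr26, Lyrm5 and Aasdh, all with r of at least 0.995. With 6 libraries such values are common: 863, 2811 and 1404 of these remaining tested genes had r above 0.95 with Bcl2, Bcl2l1 and Mcl1.

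Other genes of the apoptosis pathway were taken from 8 lists holding 93 genes, of which 77 were tested and 0 passed the limma test. At an unadjusted limma p under 0.05 there were 8, where 11.8% of all tested genes were higher and 0.381% lower in CD93pos. Of the 77, 67 (87.0%) had a positive fold change, against 79.9% of all tested genes. The median over the 77 was 2.32 against 2.36 over all tested genes. Without CD93neg replicate 1, 46 were positive, where 60.1% of all tested genes were, and the median was 0.23 against 0.43. The shares of 79.9% and 60.1% are also the background for the counts of positive genes in each list below. Groups did not overlap for 16 of the 77 with CD93pos higher and for 1 with CD93pos lower (background 18.3% and 1.92%). These counts were 20 higher and 14 lower without CD93neg replicate 1 (background 21.8% and 13.8%). With all libraries, the 1 lower gene, outside the rule for named genes and singled out after its values were seen, was Pim1, a survival kinase induced by STAT5, with 401, 153 and 157 reads in CD93pos against 212, 445 and 296 in CD93neg. In normalized counts all 3 CD93pos libraries lay below all 3 CD93neg libraries (log2 fold change -1.70, limma adjusted p = 0.625).

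None of the 5 further pro-survival relatives was expressed enough to be tested. Bcl2l2 had 66, 1 and 13 reads in CD93pos against 0, 1 and 0 in CD93neg. Bcl2a1d, one of the A1 genes typical of mature myeloid cells, had 16 reads in CD93neg replicate 3 and none in any other library, and Bcl2a1b had 5, 0 and 3 reads in CD93pos while CD93neg had none. Reads can be shared among the near-identical A1 copies, which makes these counts uncertain. Of the 11 other family killers and related genes, 5 were tested and 4 had a positive fold change (79.9% of all tested genes). Bnip3l, a mitophagy receptor, had 2084, 1665 and 1778 reads in CD93pos against 0, 724 and 396 in CD93neg (log2 fold change 3.88, or 0.77 without CD93neg replicate 1). Bcl2l13, whose exons overlap Bid, had 491, 594 and 442 reads against 0, 0 and 87. Bclaf1 was well read in all libraries, with 4532, 2987 and 3400 reads against 2930, 1480 and 920 and a log2 fold change of -0.02, which was 0.61 without CD93neg replicate 1, where CD93pos was higher without overlap.

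All 14 genes of the apoptosome, the caspases and the mitochondrial release factors passed the filter on low counts. The fold change was positive for each (79.9% of all tested genes), with a median of 3.00 (2.36 for all tested genes). With CD93neg replicate 1 left out, 11 of 14 were positive (60.1% of all tested genes) and the median was 0.39 (0.43 for all tested genes). Casp2, an initiator caspase, had 2355, 2212 and 2296 reads in CD93pos against 5422, 48 and 584 in CD93neg. It counted as positive by limma (0.89), although its normalized mean was 1414 in CD93pos against 3600 in CD93neg and DESeq2 gave -1.35. Xiap, Mdm2, Fbxw7, Gsk3b and Huwe1, named below, were likewise positive by limma and negative by DESeq2 (-2.04, -2.30, -1.85, -0.095 and -0.32). The counts of positive genes in each list thus depend on the method. Vdac1 and Vdac2, pore proteins of the outer mitochondrial membrane of which Vdac2 binds Bak1, had log2 fold changes of 3.64 and 3.58, and of 0.29 and 0.20 without CD93neg replicate 1. The 6 caspase inhibitors had a median of 0.92, which turned to -0.24 without that library, with 3 of 6 positive. Xiap, which binds active caspases, had 361, 512 and 98 reads in CD93pos against 1067, 691 and 1 in CD93neg. Birc6 had 682, 841 and 373 against 40, 123 and 582, and Naip5 224, 0 and 70 against 552, 677 and 29. With all libraries included, the groups overlapped for each of these 6 genes.

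Of p53 and its targets outside the family, 18 of 21 were tested and 17 had a positive fold change, with a median of 2.53, against 12 of 18 and a median of 0.38 without CD93neg replicate 1. Of all tested genes, 79.9% were positive with that library and 60.1% without it. Trp53, which drives Bbc3, Pmaip1 and Bax after damage, had 3925, 1871 and 3503 reads in CD93pos against 814, 1479 and 738 in CD93neg, and its normalized means of 1811 and 1346 came from groups separated only by 1483 in CD93pos replicate 2 and 1478 in CD93neg replicate 1 (log2 fold change 0.42, limma adjusted p = 0.66; 18.3% of tested genes had CD93pos higher without overlap). Mdm2 and Mdm4, which restrain p53, had 3055 and 2410 reads in CD93neg replicate 1, their highest values in any library. In the death receptor list 12 of 14 genes were tested, with a median of 3.03, which was 0.49 with 7 of 12 positive without CD93neg replicate 1. Casp8, which cuts Bid, had 1938, 1391 and 1562 reads in CD93pos against 0, 952 and 839 in CD93neg, and its log2 fold change was 3.21, or -0.15 without CD93neg replicate 1. Cflar, the inhibitor of Casp8, had 439, 508 and 326 against 1574, 69 and 116, and Ripk3, a kinase of necroptosis, 2155, 211 and 2490 against 0, 288 and 249.

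Genes that act on Mcl1 turnover (8 of 9 tested, median 3.37) and survival signalling genes (15 of 15 tested, median 1.22) completed the pathway. These medians were 1.45 and -0.32 without CD93neg replicate 1, so that the survival signalling list turned, with 5 of 15 positive. Fbxw7, a ubiquitin ligase subunit that marks Mcl1, had 151, 348 and 196 reads in CD93pos against 926, 1 and 0 in CD93neg. Gsk3b, a kinase that phosphorylates Mcl1, had 665, 452 and 231 against 1, 400 and 305, and the ligase Huwe1 764, 179 and 253 against 0, 288 and 340. The fitted log2 difference was -0.93 for Kit, which binds stem cell factor, and -0.97 for Pik3r1, a regulatory subunit of PI3 kinase, and shrank to -0.24 and -0.23 without CD93neg replicate 1. The values of Kit and Pik3r1 overlapped between the groups with all libraries included, and neither gene passed the test.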

How the data were processed

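Libraries were grouped by the titles in the labels, 3 of CD93pos and 3 of CD93neg HSCs. Per the submitters' processing notes, the tools were STAR, DESeq2 1.26 and featureCounts (Subread 1.5.0-p1), and the builds mm10 and GRCm38. The annotation release is not given in the sources used here, nor is the strand setting. The authors deposited a signal table, in which each library's gene counts are scaled by its size factor, and, per the file headers, a table of mean signal, log2 fold change and its SE, Wald score, p-value and adjusted p-value. Whole reads were recovered for 100% of values above 0 (tolerance 0.001).

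Genes with a mean of at least 10 were tested with limma 3.58.1 (eBayes with trend, two-sided) on log2(normalized count + 1), a scale that understates the change of low genes. The limma values of better-read members were not conservative. For Bcl2l1, Bax, Bid and Bad they were 3.52, 3.17, 3.22 and 3.09, against 1.48, 1.00, 0.60 and 1.26 with DESeq2. Pmaip1, with few reads, went the other way, at 3.86 against 7.56. edgeR 4.0.16 called 0 genes and DESeq2 1.42.0 called 705 on the recovered reads (R 4.3.3). The code of the fit was run on simulated counts that had less spread than these libraries and no near-empty library. That run does not show how the fit performs on these data. Positions and exon lengths came from GENCODE M21 on GRCm38 (47224 of 47937 IDs found by unversioned ID), and 1 symbol a spreadsheet had turned into a date was restored by ID. The Clopper-Pearson intervals and the floors cover counting error only, and amplified reads are not independent molecules. The intervals of the fold changes come from the limma SE and measure the spread between libraries. Members, lists and tests were chosen with earlier results of these data known. Named genes were the 10 members, the 3 with the highest mean in each of 8 pathway lists, and the 3 most correlated with each pro-survival member; 1 gene that the rule names is not reported here. Figures were drawn with matplotlib 3.10.9.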

Additional observations from a re-analysis of the deposited data

How the results depend on the processing

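limma called 0 genes with 1436 at an unadjusted p under 0.05, and edgeR called 0 with 1245. The count was 206 with a pseudocount of 0.5, 705 with DESeq2 on recovered reads and 24 with the replicate number as a block, and 0 with a pseudocount of 10, either other filter, CPM scaling or quantile normalization. Leaving out 1 library gave 0 to 1880 calls: 774 without CD93pos replicate 2, 1 without CD93neg replicate 1, 1880 without CD93neg replicate 3, and 0 without each of the others. Replicate numbers mark no shared animal in the labels. Deviations of same-numbered libraries correlated at 0.037, 0.019 and 0.061, so the numbers were not taken as pairs, although each library correlated best with its own number. No member was called under the block.

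Bcl2, Bcl2l1, Mcl1, Bax and Bad kept a positive sign under every alternative run, where 50.5% to 82.4% of the genes in each fit were positive. The lowest values of Bax (0.37, SE 0.46, without CD93neg replicate 1) and Mcl1 (0.66, SE 1.18, with quantile normalization) lay within 1 SE of 0. Without CD93neg replicate 1 the median of all tested genes was 0.43. Bid was never negative, but had no direction without CD93neg replicate 1 (0.03, SE 0.52). By summed CPM, CD93pos over CD93neg, Bid was at 1.20 with all libraries and at 0.88 without CD93neg replicate 1. Pmaip1 had no direction with quantile normalization (0.0025) and was positive in the others (1.83 to 8.89), and of all members only Bcl2 was ever called, without CD93neg replicate 3 (8.12, limma adjusted p = 0.0146; the range of its fold change was 2.69 to 8.12). Bak1 reversed with quantile normalization (-0.31), edgeR (-0.38), DESeq2 (-0.46) and without CD93neg replicate 1 (-1.09), and was highest without CD93neg replicate 2 (3.21). Bcl2l11 reversed with quantile normalization (-1.38), DESeq2 (-0.12) and without CD93neg replicate 1 (-0.48), and was 2.91 without CD93neg replicate 2. Bbc3 reversed without CD93pos replicate 2 (1.60), CD93neg replicate 2 (0.68) or CD93neg replicate 3 (0.79), and was -2.24 without CD93neg replicate 1. The difference in pro-survival share, -7.13 points, ran from -22.8 to 18.2 with 1 library left out, and reversed without CD93neg replicate 1 (18.2) and over summed reads (20.5). The cause of these reversals was not tested beyond leaving libraries out. CD93neg replicate 1 had at most 1 read for each member, and Bbc3, Pmaip1 and Bcl2l11 had at most 158 reads in any library.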

Other observations

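CD93neg replicate 1, with 2 reads for the whole Bcl2 family, was not without apoptosis transcripts. Of the 77 tested pathway genes, 55 had no read in it, where 71.0% of all tested genes had none. Another 16 had more than 100 reads, a count for which no share over all genes was taken. Bclaf1, Casp2, Mdm2, Mdm4, Cflar and Xiap, singled out for their high values, had 2930, 5422, 3055, 2410, 1574 and 1067 reads there. Of the 21 genes of p53 and its targets outside the family, 17 were unread there, and Mdm2, Mdm4 and Trp53 had 1078, 851 and 287 CPM. At most 1 read in that library was seen for 76.6% of all tested genes, and for 10 of the 10 members.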
